A study of Homo sapiens with 9 samples.

Results

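TXX-1-10 was compared with its vehicle in MDA-MB-231 cells, an established human triple-negative breast cancer line with a mesenchymal appearance. TXX-1-10 is a derivative of rimonabant, an antagonist of cannabinoid receptor 1, altered on its pyrazole ring, at position 3, by a charged quaternary ammonium group. The study treated the cells with DMSO (the vehicle), rimonabant or TXX-1-10 and sequenced 3 poly(A)-selected RNA libraries per treatment. The 3 TXX-1-10 libraries and the 3 vehicle libraries, 6 of the 9 in the series, entered the comparison, and 2 rimonabant libraries served for the contrast between the compounds. All groups are the same cell line, and dose and exposure time of the sequenced cells are not given in the sources used here. The genes described are those listed in all 6 libraries, 9397 of 27615, of which 9395 passed a filter on low counts and were tested. What the compound did to 3 gene lists, cell cycle and DNA replication, cell adhesion, and glycolysis, was set aside, and the text concerns the other genes.

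Levels are given as FPKM, the authors' fragments per kilobase of gene length, scaled to the library, so that genes can be compared per length. Library totals behind these values were between 17078370 and 17245379 in the vehicle libraries and between 18394759 and 19277808 in the TXX-1-10 libraries. Genes are said to have risen or fallen, or to be called, where edgeR's quasi-likelihood test gave an adjusted p (Benjamini-Hochberg, over all genes tested) under 0.05 and the log2 fold change reached 1 in either direction. TXX-1-10 replicate 3 stood apart: its counts differed from those of replicates 1 and 2 by 17.8 and 22.1 chi-square units per degree of freedom, against 1.96 between replicates 1 and 2 and 2.11 to 4.21 among the vehicle libraries, and its deviations fell with gene length (Spearman's rho -0.62 across genes, which are not independent replicates). Nothing in the labels says that replicates came from separate cultures, so p-values measure the spread between these libraries, which may be technical. Of 14 markers of the line itself, 13 were listed in every library and S100A4 in 5 of the 6. Vimentin (VIM) stood at 261 to 329 FPKM and EGFR at 35 to 48 FPKM. Of 23 markers of other cell types, ERBB2 alone was listed in all 6 libraries (7.0 to 9.52 FPKM). EPCAM (4.47 to 5.37 FPKM), KDR (0.712 to 1.25 FPKM) and COL1A1 (0.31 to 0.798 FPKM) were listed in 5. CDH1 stood at 0 in the 3 libraries that listed it. A marker missing from a list that ends early is not thereby absent. The summed level of these markers was 9.52 to 19.4 FPKM in the vehicle and 13 to 15.6 FPKM in the TXX-1-10 libraries, over lists of unequal length.

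Several of the gene groups below belong to known programmes. In the integrated stress response, kinases that sense amino acid shortage, unfolded protein in the endoplasmic reticulum, haem shortage or double-stranded RNA phosphorylate the initiation factor eIF2, general translation falls, and the factor ATF4 is made and switches on genes such as DDIT3 (CHOP), TRIB3 and those for amino acid synthesis. NRF2 drives antioxidant and iron-storing genes, and TFEB and its relatives drive lysosomal and autophagy genes, many of them through an E-box named the CLEAR element. YAP and TAZ, held in check by the Hippo kinases, act through TEAD factors on genes of the matrix and cytoskeleton.

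Of the 9395 genes tested, 495 rose (5.27%) and 697 fell (7.42%), together 12.7%. The share given for a list counts members called in either direction, as the 12.7% does. Where all called members of a list went the same way, 5.27% higher or 7.42% lower is the nearer measure. By the adjusted p alone, without the fold threshold, 33.8% were higher and 39.9% lower, together 73.7%. Where the groups of a gene are said below not to overlap, this describes its values and does not set it apart. The share of all genes without overlap is not given here. Without TXX-1-10 replicate 3, 496 rose and 728 fell. As a scaling, the sum of the listed counts means here and below the sum over the genes tested. Scaling by it, in place of the total behind the FPKM values, moved the median of all genes by 0.14 on the log2 scale. It gave 664 higher and 534 lower genes, so that 55.4% of the changed genes were higher, against 41.5%. Beside a gene named below, the log2 fold change without a library follows where leaving that library out took the gene under the fold threshold. The counts of the genes tested came to 98.5% to 99.8% of the FPKM total in the vehicle libraries and to 88.7% to 92.3% of it in the TXX-1-10 libraries, a ratio and not a share, since all listed counts of vehicle replicates 1 and 3 exceed that total. Of the called genes named below, 13 lost the call with the sum of listed counts (ACO1, AJUBA, CD74, CNN3, FOSL2, HBEGF, HMGB3, MITF, NAAA, PLAU, SNHG1, SNHG4 and TAP2). Of the genes that rose, 12 (2.42%) stood in the 3 lists set aside, and of those that fell 193 (27.7%). Outside these lists 483 genes rose and 504 fell, 5.36% and 5.59% of 9015 tested. All gene lists were chosen with earlier results of these data known. A high share or median of a list therefore describes its members and adds no support.

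**Figure D1:**
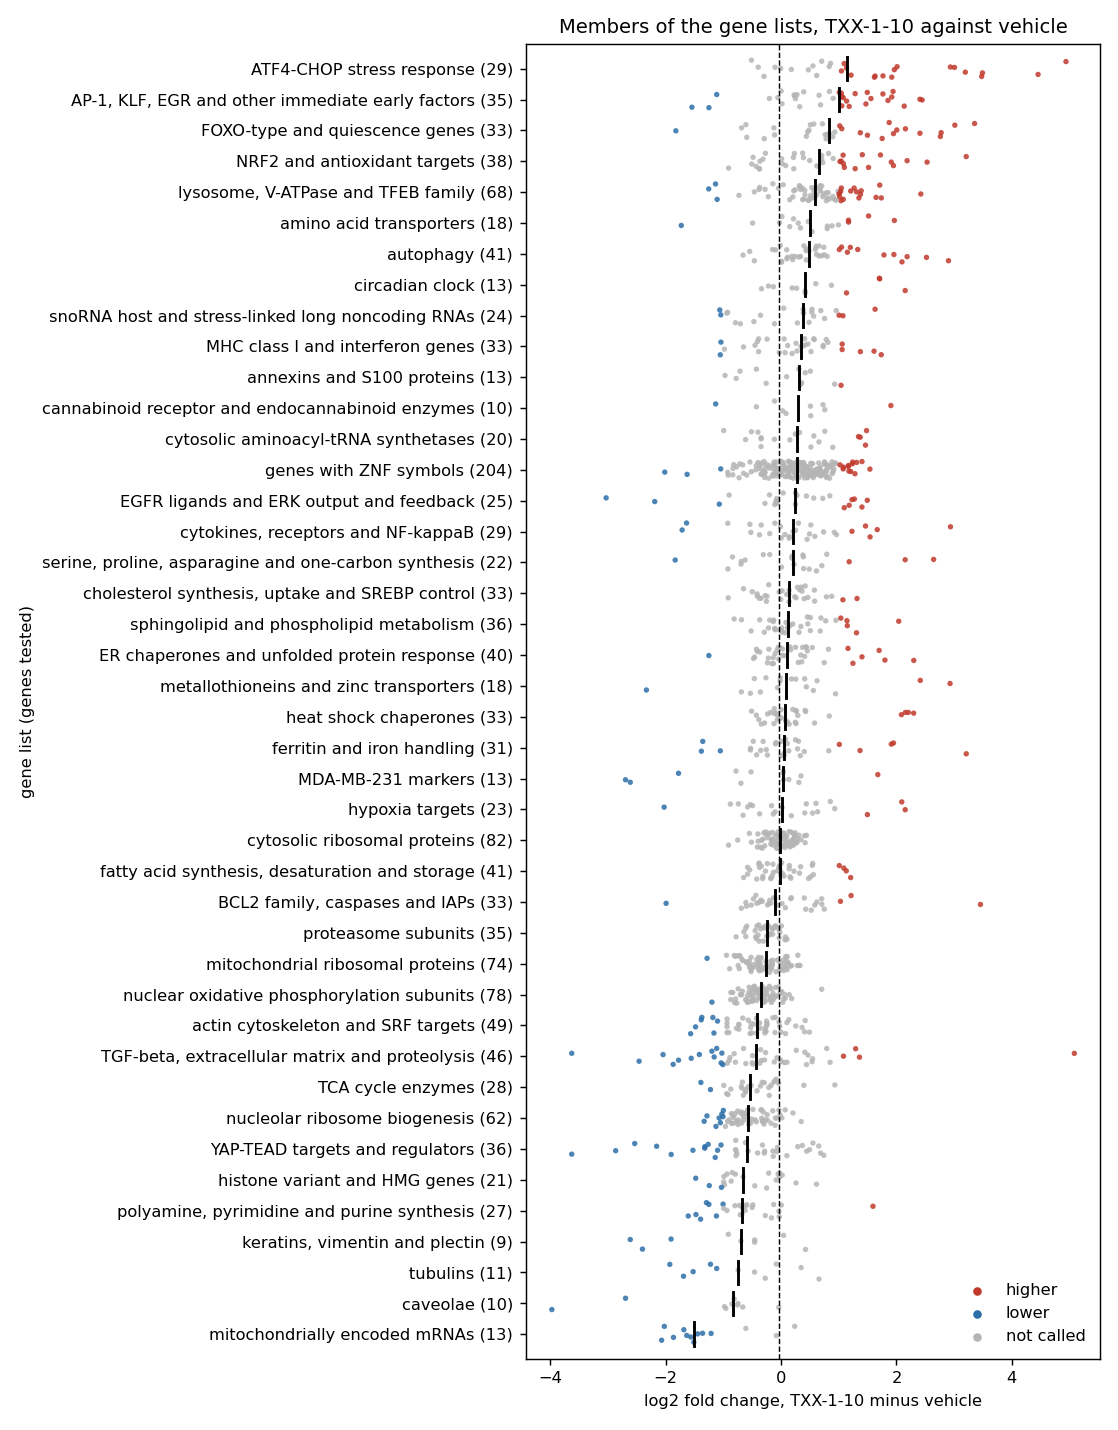
Log2 fold change of TXX-1-10 against vehicle (x axis) for each tested member of 42 gene lists (y axis, genes tested in brackets). Each point is a gene, red where called higher, blue where called lower and grey otherwise. Black bars mark list medians and the dashed line the median of all genes tested (-0.04). The medians run from 1.13 for the ATF4-CHOP list to -1.51 for the mitochondrially encoded mRNAs.

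The genes of the ATF4-CHOP stress response held the highest median of all the lists. Of 29 members tested, 17 rose and 0 fell, a share of 58.6% beside 12.7% of all genes tested, and their median log2 fold change was 1.13 beside -0.04 for all genes. NUPR1, a small chromatin-bound stress protein on chromosome 16 (ENSG00000176046), stood at 0.506, 0.347 and 0.44 FPKM in the vehicle libraries and at 12.2, 12 and 15.6 FPKM in the TXX-1-10 libraries. All TXX-1-10 values lay above all vehicle values, and the log2 fold change was 4.94 (SE 0.153, adjusted p = 8.52e-10). DDIT3, which encodes CHOP (chromosome 12, ENSG00000175197), went from 10.8, 11.3 and 11.2 FPKM to 122, 109 and 143 FPKM, a 11.2-fold rise (adjusted p = 6.79e-10). TRIB3, a pseudokinase that CHOP and ATF4 induce and that binds AKT (chromosome 20, ENSG00000101255), went from 7.64, 6.99 and 7.34 FPKM to 79.8, 75.2 and 89.6 FPKM, 11.1-fold. Neither gene's groups overlapped, and for both the third TXX-1-10 library was the highest of the 6.

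GDF15, a secreted cytokine of stressed cells, rose from 2.24, 2.03 and 2.11 FPKM to 45, 42.1 and 53.2 FPKM, with a log2 fold change of 4.45 (SE 0.114). SESN2, a leucine sensor that restrains mTORC1, rose from 2.75, 2.96 and 2.89 FPKM to 23, 23.3 and 22.7 FPKM. CHAC1, which degrades glutathione, rose from 1.48, 1.92 and 1.55 FPKM to 13.1, 12 and 12.8 FPKM. In all of these the 2 groups did not overlap. CREBRF (log2 fold change 3.19), JDP2 (2.01), ATF3 (1.92), CEBPG (1.62) and CEBPB (1.21), all regulators or factors of the bZIP class, also rose. So did GTPBP2 (1.77) and PPP1R15A (1.63), the latter the subunit that directs phosphatase to eIF2. The mRNA of ATF4 itself, whose control is largely translational, was at 114, 109 and 114 FPKM in vehicle and 163, 160.3 and 194 FPKM with TXX-1-10, a log2 difference of 0.62 (adjusted p = 2.43e-05) that did not reach the fold threshold. The eIF2 kinases were not called: EIF2AK3 stood at 0.83, EIF2AK2 at -0.11, EIF2AK1 at -0.30 and EIF2AK4 at -0.40 on the log2 scale.

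The letters of the ATF4-C/EBP composite site, TGATGNAAN on either strand, were looked up in promoter windows from RefSeq (GRCh38.p14, 250 bases before to 50 after the transcript start), which matched 7698 of the 9395 genes. They stood in 16% of the 25 ATF4-CHOP promoters, in 3.35% of the 388 promoters of genes that rose, in 1.85% of the 541 of genes that fell, and in 1.55% of all 7698. The windows of 3 members that rose are shown because they hold these letters, here in capitals, either as written or as their reverse complement. CHAC1 lies at chr15:40953231-40953299 on the plus strand with the match 210 bases before the start, HERPUD1, an endoplasmic reticulum stress gene, at chr16:56931935-56932003 on the plus strand with the match at 177 bases, and ATF3 at chr1:212565186-212565254 on the plus strand with the match at 191 bases. A match describes letters only, and shares were not tested.
CHAC1: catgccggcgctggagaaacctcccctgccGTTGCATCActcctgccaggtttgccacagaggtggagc
HERPUD1: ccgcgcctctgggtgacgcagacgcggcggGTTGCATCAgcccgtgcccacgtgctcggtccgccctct
ATF3: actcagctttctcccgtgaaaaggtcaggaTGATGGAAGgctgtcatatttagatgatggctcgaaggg

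Of 22 genes for serine, proline, asparagine and one-carbon synthesis, 3 rose and 1 fell (18.2%, median 0.21). CTH, which makes cysteine from cystathionine (log2 fold change 2.64), PHGDH, the first enzyme of serine synthesis (2.15), and PSAT1, the aminotransferase after it (1.18), rose, and the proline enzyme PYCR3 fell (-1.84). Of 18 amino acid transporters, 4 rose and 1 fell (27.8%, median 0.50). SLC3A2, the heavy chain shared by several exchangers, rose from 42.1, 43.2 and 44.2 FPKM to 164, 159 and 182 FPKM, and SLC7A11, the cystine carrier paired with it, from 5.99, 5.86 and 5.47 FPKM to 16.7, 17.9 and 14.9 FPKM. The lysosomal cationic amino acid exporter PQLC2 (1.17) and SLC38A7 (1.17) rose, and the arginine carrier SLC7A2 fell (-1.73). Of 20 cytosolic aminoacyl-tRNA synthetases, 4 rose and 0 fell (20%, beside 12.7% of all genes in either direction and 5.27% higher, median 0.28). They were WARS (1.48), GARS (1.46), SARS (1.37) and CARS (1.34).

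In the list of endoplasmic reticulum chaperones and unfolded protein response genes, 6 of 40 rose and 1 fell (17.5%, median 0.10). HSPA5 (BiP), the main chaperone of this compartment, was at 138, 136 and 139 FPKM in the vehicle libraries and at 318, 309 and 349.8 FPKM with TXX-1-10, 2.37-fold higher (adjusted p = 2.70e-08), with no overlap. DNAJB9 (2.30), a co-chaperone of BiP, the sensor ERN1 (1.80), HERPUD1 (1.70), XBP1 (1.40) and ERO1B (1.16) rose, and CREB3L2 fell (-1.25). Other chaperones of the compartment were not called, among them HYOU1 (0.43), CRELD2 (-0.43) and PDIA4 (-0.46). Of 33 heat shock chaperones, 4 rose and 0 fell (12.1%, median 0.08), beside 12.7% of all genes in either direction and 5.27% higher. HSPA1A (2.30) and HSPA1B (2.21), inducible HSP70 genes so alike that reads may be divided between them, were among the 4, with HSPB8 (2.15) and DNAJB2 (2.09).

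Of 38 NRF2 and antioxidant targets, 14 rose and 0 fell (36.8%, median 0.66). HMOX1, the haem-degrading oxygenase on chromosome 22 (ENSG00000100292), was at 4.8, 4.39 and 3.26 FPKM in vehicle and at 36.9, 34.5 and 43.7 FPKM with TXX-1-10, 9.25-fold higher (log2 SE 0.131, adjusted p = 5.00e-09). OSGIN1, a growth-restraining oxidative stress gene, went from 3.27, 3.87 and 3.04 FPKM to 18.6, 18.3 and 22 FPKM, and SQSTM1, the autophagy receptor p62 that binds KEAP1, from 47, 48 and 48.6 FPKM to 216, 212 and 224 FPKM. None of the 3 overlapped between the groups. The glutathione synthesis subunit GCLC (1.41), the thioredoxin reductase TXNRD1 (1.08) and the small MAF gene MAFG (1.72) rose. The classical targets NQO1 (0.72) and GCLM (0.82), and NFE2L2 (0.70), the gene of NRF2, passed the adjusted p but not the fold threshold.

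The iron list showed genes on both sides, 5 of 31 higher and 3 lower (25.8%), and the median of 0.05 turned to -0.04 without TXX-1-10 replicate 3. The ferritin chains FTH1 (from 137, 133 and 133 FPKM to 489.6, 491 and 574 FPKM) and FTL (log2 fold change 1.91), which store iron, rose, as did the biliverdin reductase BLVRB (1.37) and, at the threshold, ISCU (1.01, 0.91 without TXX-1-10 replicate 3). TFRC, the transferrin receptor that brings iron in, fell from 169, 167 and 161 FPKM to 66.2, 66.7 and 60.9 FPKM, and ACO1, which encodes an iron-regulatory protein, fell (-1.05). Both ferritin genes have many processed pseudogenes, to which reads may be lost. Of 18 metallothionein and zinc transporter genes, 2 rose and 1 fell (16.7%, median 0.08). SLC30A1, which exports zinc from the cell, was at 5.59, 5.07 and 5.18 FPKM and then at 40.9, 39.7 and 40.1 FPKM (7.62-fold higher), the metallothionein MT1X rose (2.41) and the zinc importer SLC39A10 fell (-2.34). MT2A, the most abundant of the family, stood at 2506, 2522 and 2513 FPKM in vehicle and at 3369, 3253 and 4492 FPKM with TXX-1-10, not past the fold threshold, and metallothioneins resemble each other closely.

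**Figure D2:**
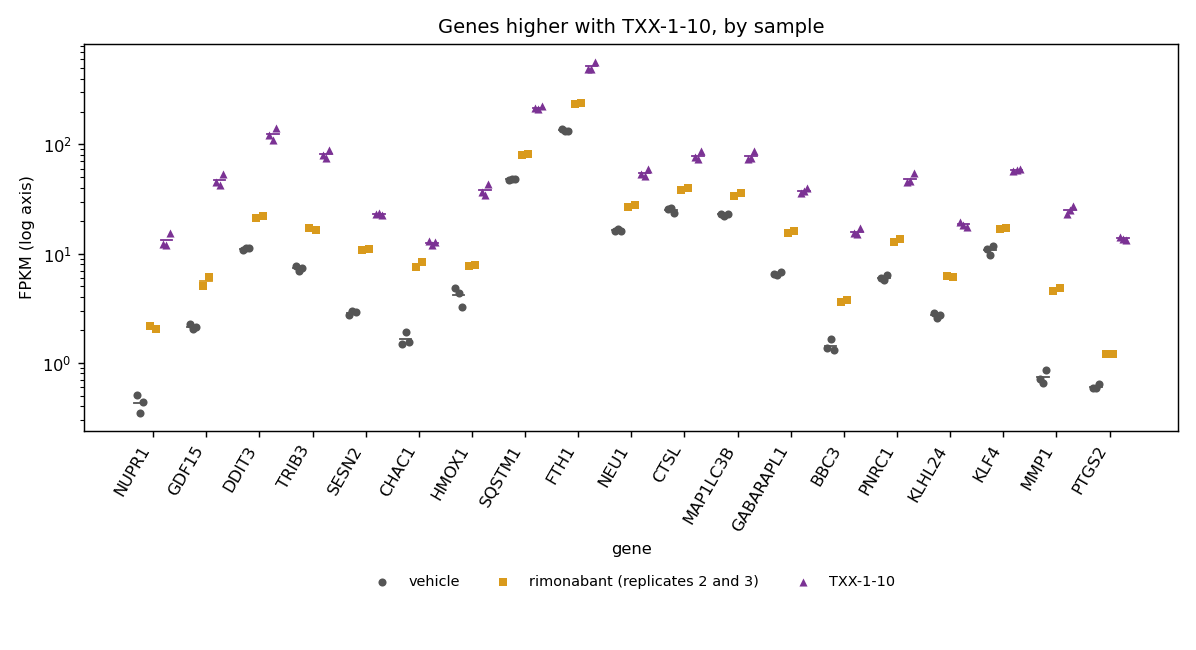
FPKM on a log axis for 19 genes that rose (x axis), with 1 point per library and a bar at the group mean for vehicle (circles, n = 3), rimonabant (squares, replicates 2 and 3) and TXX-1-10 (triangles, n = 3). In each of the 19 genes the TXX-1-10 libraries lie above the vehicle libraries, DDIT3 at 122, 109 and 143 FPKM against 10.8, 11.3 and 11.2 FPKM.

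Lysosomal genes were higher with TXX-1-10 in large number and mostly by little. Of 68 genes for lysosomal enzymes, the proton pump V-ATPase and the TFEB family, 17 rose and 3 fell (29.4%, median 0.59), and by the adjusted p alone 54 were higher, 79.4% beside 33.8% of all genes. RRAGC, a Rag GTPase that recruits mTORC1 to the lysosome, rose by 2.42 on the log2 scale and the related Rag GTPase gene RRAGD from 7.13, 6.28 and 6.98 FPKM to 17.3, 17.7 and 18.4 FPKM, and FLCN, which acts on these GTPases, from 5.35, 5.23 and 5.32 FPKM to 11.2, 11.2 and 11.2 FPKM. The sialidase NEU1 went from 16.3, 16.8 and 16.2 FPKM to 53.4, 51.1 and 59.7 FPKM, and the protease CTSL from 25.7, 26.1 and 23.8 FPKM to 75.9, 74.1 and 86.2 FPKM. The 2 groups did not overlap in any of these. The peptidase TPP1 (1.71), the sphingolipid activator PSAP (1.35), GRN (1.38), the ceramidase ASAH1 (1.31) and NPC2 (1.04, 0.999 without vehicle replicate 3, 0.92 without TXX-1-10 replicate 3), a carrier of cholesterol inside the lysosome, rose. CTSC (-1.26), ATP6V0E2 (-1.14) and MITF (-1.11), a relative of TFEB, fell. TFE3, another relative, was at 43.3, 42.5 and 43.9 FPKM and 53.9, 53.3 and 55.1 FPKM and was not called.

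Of 41 autophagy genes, 11 rose and 0 fell (26.8%, median 0.48). The genes of the ubiquitin-like proteins that coat the autophagosome, GABARAPL1 and MAP1LC3B, went from 6.46, 6.32 and 6.85 FPKM to 36, 37.1 and 39.6 FPKM and from 23.2, 22.2 and 23.2 FPKM to 74, 74.6 and 87.7 FPKM. WIPI1, which binds the growing membrane, went from 5.8, 5.9 and 6.04 FPKM to 25, 24.4 and 26.4 FPKM. TP53INP1 (2.90), the kinase ULK1 (1.96), its partner RB1CC1 (1.05, 0.99 without vehicle replicate 3), ATG14 (1.15) and the receptor OPTN (1.20) rose. BECN1 (0.11), ATG5 (0.19) and the hypoxia-linked receptor BNIP3 (-0.66) were not called.

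The E-box CACGTG stood in 34% of the 47 lysosomal promoters with a window, beside 11% of all 7698, in 12.6% of the promoters of genes that rose and in 11.1% of those of genes that fell. The antioxidant response element TGANNNNGC, a short and common string, stood in 59.3% of 27 NRF2 list promoters and in 43% of all. Letters of one element can lie inside another. Windows of 3 genes that rose and hold an E-box, in capitals, follow, 2 of them from the lysosomal list. RRAGC lies at chr1:38859849-38859914 on the minus strand with the match 112 bases before the start, NEU1 at chr6:31862912-31862977 on the minus strand with the match at 126 bases, and CREBRF at chr5:173056193-173056258 on the plus strand with the match at 129 bases.
RRAGC: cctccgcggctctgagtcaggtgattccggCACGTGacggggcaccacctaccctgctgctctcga
NEU1: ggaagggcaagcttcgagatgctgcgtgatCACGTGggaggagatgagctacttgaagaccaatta
CREBRF: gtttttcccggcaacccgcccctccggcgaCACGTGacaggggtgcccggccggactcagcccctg

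Of 33 genes for cholesterol synthesis, uptake and SREBP control, 2 rose and 0 fell (6.06%, median 0.14), INSIG1 (1.32), which holds SREBP in the endoplasmic reticulum, and MSMO1 (1.07, 0.99 without TXX-1-10 replicate 3). Of 41 fatty acid genes, 4 rose and 0 fell (9.76%), the lipid droplet coat PLIN2 (1.21), the phosphatidate phosphatase LPIN1 (1.01, 0.99 without vehicle replicate 1, 0.97 without TXX-1-10 replicate 2), the elongase ELOVL7 (1.09) and the phospholipase PNPLA8 (1.13), and their median of -0.02 turned to 0.12 when libraries were scaled by the sum of listed counts. Of 36 sphingolipid and phospholipid genes, 5 rose and 0 fell (13.9%, median 0.12), led by the sphingosine kinase SPHK1 (2.04). The cholesterol and fatty acid shares lie under the 12.7% of all genes in either direction, and the sphingolipid share lies near it. All called members of these lists were higher, however, and 5.27% of all genes were. Among 10 genes of the endocannabinoid system, ABHD4, a lipase on the way to anandamide, rose (1.90), and NAAA, which breaks down N-acylethanolamines, fell (-1.14, 20% of the 10, median 0.30). CNR1, the gene of the receptor that rimonabant blocks, was not listed in all 6 libraries and was not tested.

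Of 33 FOXO-type and quiescence genes, 14 rose and 1 fell (45.5%, median 0.84). PNRC1, a nuclear coregulator, went from 5.97, 5.7 and 6.4 FPKM to 44.8, 46.3 and 54.6 FPKM (8.06-fold), KLHL24, a ubiquitin ligase adaptor, from 2.88, 2.59 and 2.75 FPKM to 19.5, 18.5 and 17.7 FPKM, and YPEL2 from 0.446, 0.468 and 0.375 FPKM to 4.68, 4.67 and 3.85 FPKM. None of these overlapped between the groups. FBXO32 (2.77), BTG1 (2.41), MXD1 (2.16) and MXD4 (1.87), which oppose MYC at its partner MAX, HBP1 (2.01), YPEL3 (1.75), YPEL5 (1.95) and CCNG2 (1.497) rose, and the insulin receptor substrate IRS1 fell (-1.83).

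Of 33 genes of the BCL2 family, caspases and inhibitors of apoptosis, 3 rose and 1 fell (12.1%, beside 12.7% of all genes), BBC3 (PUMA), a killer protein of the family, XIAP (1.21), CASP4 (1.03, 0.99 without vehicle replicate 3, 0.997 without TXX-1-10 replicate 3) and, lower, BIRC3 (-1.99), and the median of -0.11 turned to 0.03 with the sum of listed counts. BBC3 went from 1.36, 1.64 and 1.31 FPKM to 15.3, 15.2 and 17 FPKM (11-fold, adjusted p = 7.03e-10), with no overlap.

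Of 35 genes for AP-1, KLF, EGR and similar factors, 18 rose and 3 fell (60%, median 1.01). KLF4 went from 10.9, 9.65 and 11.8 FPKM to 57.2, 58.8 and 60.1 FPKM, EGR1 from 21.9, 22.8 and 24.1 FPKM to 53.3, 51.8 and 50.9 FPKM, and both without overlap. KLF2 (1.94), KLF13 (1.85), JUNB (1.76), JUND (1.56), RHOB (2.13) and IER3 (1.49) rose. FOS stood at 21.2, 22.7 and 21.2 FPKM in vehicle and at 21.4, 21.4 and 22.2 FPKM with TXX-1-10, and these values overlapped. JUN (0.68) and MYC (0.39) were not called, and FOSL2 (-1.12), ID1 (-1.55) and ID3 (-1.25), the last 2 known targets of BMP signalling, fell. The AP-1 letters TGANTCA, added after the values were seen, stood in 7.47% of the promoters of genes that rose, 3.14% of those of genes that fell and 3.96% of all.

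Of 25 EGFR ligands and genes of ERK output and feedback, 6 rose and 3 fell (36%, median 0.25). The ligands AREG (from 25.2, 24.1 and 21.6 FPKM to 2.93, 2.38 and 3.33 FPKM) and HBEGF (from 16.9, 16.3 and 17.1 FPKM to 8.22, 7.6 and 8.07 FPKM) fell, while LIF (1.23), DUSP5 (1.40), SPRY2 (1.27) and SPRY4 (1.09) rose and SPRY1 fell (-2.19). Of 29 cytokine, receptor and NF-kappaB genes, 5 rose and 2 fell (24.1%, median 0.21). CXCL2 rose from 3.44, 3.29 and 4.3 FPKM to 25.9, 25.5 and 33 FPKM, CXCL8 from 9.24, 9.33 and 9.09 FPKM to 26.1, 27.1 and 27.5 FPKM, and RELB (1.46) and IL6R (1.67) rose, while IL18 (-1.72) and TNFRSF21 (-1.64) fell. Of 33 MHC class I and interferon genes, 5 rose and 2 fell (21.2%, median 0.34), with IFI44 (1.74), IFIT1 (1.06), IFIT2 (1.61), IFIT3 (1.37) and ISG15 (1.06, 0.92 without TXX-1-10 replicate 3) higher and TAP2 (-1.04, -0.996 without TXX-1-10 replicate 1) and CD74 (-1.05, -0.94 without TXX-1-10 replicate 2) lower. Of 23 hypoxia targets, 3 rose (BHLHE40 at 2.15, NDRG1 at 2.09, VEGFA at 1.496) and CA12 fell (-2.03), a share of 17.4%, and the median of 0.02 turned to -0.01 without vehicle replicate 1 and to -0.04 without TXX-1-10 replicate 3. Of 13 circadian clock genes, 4 rose and 0 fell (30.8%), NR1D1 (1.71), BHLHE41 (1.70), BHLHE40 and NFIL3, the last a member of the ATF4-CHOP list too.

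**Figure D3:**
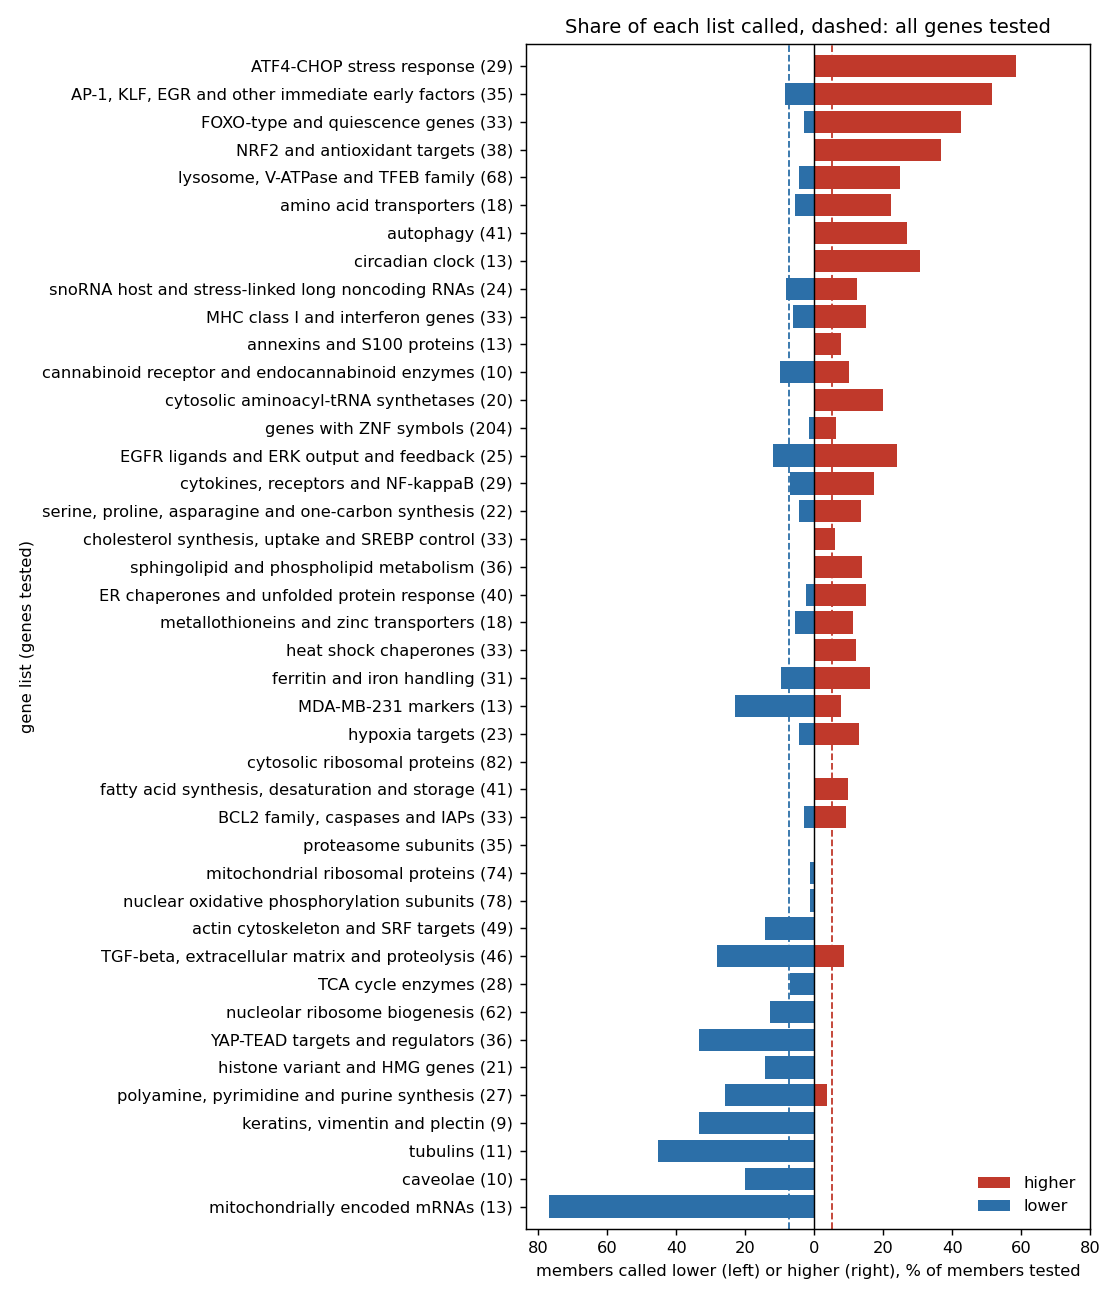
Share of tested members called lower (left, blue) or higher (right, red) in each of the 42 gene lists, in the order of the medians, with dashed lines at the shares of all genes tested (5.27% higher, 7.42% lower). The ATF4-CHOP list reaches 58.6% higher with 0 lower, and the mitochondrially encoded mRNAs 76.9% lower with 0 higher.

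Of 36 targets and regulators of YAP and TEAD, 12 fell and 0 rose (33.3%, median -0.59). CTGF, a matricellular protein and classical YAP target (ENSG00000118523, chromosome 6), was at 158, 161 and 159.8 FPKM in vehicle and at 20.3, 22 and 23.3 FPKM with TXX-1-10, 7.3-fold lower (adjusted p = 2.89e-10). CYR61, its relative, went from 719.5, 714 and 719.6 FPKM to 184, 184 and 207 FPKM, and ANKRD1 from 530.3, 517 and 495 FPKM to 224, 224 and 250.2 FPKM. All 3 separated the groups fully. Tissue factor F3 (-2.54), CRIM1 (-2.16), AMOTL2 (-1.53), AJUBA (-1.04) and the transcription factor TEAD1 (-1.26) fell. The mRNAs of YAP1 (-0.29) and WWTR1, the gene of TAZ (-0.14), were not called.

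Of 46 genes for TGF-beta signalling, matrix and proteolysis, 13 fell and 4 rose (37%, median -0.43). TGFB2, a TGF-beta ligand, went from 19.3, 17.9 and 18.1 FPKM to 1.4, 1.56 and 1.5 FPKM, 12.4-fold lower (log2 SE 0.075, adjusted p = 2.62e-10). TGFBI, induced by TGF-beta, went from 7.53, 7.09 and 7.14 FPKM to 2.03, 2.01 and 2.3 FPKM, and the basement membrane proteoglycan HSPG2 (-2.46), the lysyl oxidase LOXL2 (-2.05), COL12A1 (-1.56) and the plasminogen activators PLAT (-1.20) and PLAU (-1.12) fell. MMP1, the interstitial collagenase (chromosome 11, ENSG00000196611), went the other way, from 0.713, 0.648 and 0.855 FPKM to 23, 25.3 and 27.1 FPKM, a log2 fold change of 5.08 (SE 0.127, adjusted p = 3.40e-10). TIMP1 (1.29), SERPINE2 (1.36) and SKIL (1.08) rose too.

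Of 10 genes of caveolae, pits of the cell membrane, 2 fell and 0 rose (20%, median -0.83). CAVIN2, a coat protein of caveolae, went from 9.7, 9.81 and 10 FPKM to 0.61, 0.589 and 0.673 FPKM (15.7-fold lower), and CAV1, the structural protein, from 145, 139.9 and 135 FPKM to 21, 20.8 and 22.9 FPKM. CAVIN1 was at 193, 192 and 195 FPKM and 104, 103 and 114 FPKM, not past the fold threshold. Of 49 actin cytoskeleton genes and SRF targets, 7 fell and 0 rose (14.3%, beside 12.7% of all genes in either direction and 7.42% lower, median -0.43). They were ACTB (-1.57), ACTG1 (-1.39), MYH10 (-1.48), FSCN1 (-1.38), CNN2 (-1.18), TAGLN (-1.16) and CNN3 (-1.10). Of 9 intermediate filament genes, the keratins KRT7 (from 201, 202 and 208 FPKM to 31.6, 33.3 and 34.9 FPKM), KRT80 (-2.40) and KRT81 (-1.91) fell (33.3%, median -0.70). Of 13 markers of the cell line itself, 1 rose and 3 fell, TGFBI, KRT7 and CAV1 (30.8%), and the median of 0.03 turned to between -0.06 and -0.01 when any 1 TXX-1-10 library was left out.

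Of 13 mRNAs from the mitochondrial genome, 10 fell and 0 rose (76.9%, median -1.51). MT-CO1, a core subunit of complex IV, went from 8835, 8691 and 8908 FPKM to 2030, 2002 and 2255 FPKM, 4.2-fold lower, and MT-CO3 from 8040, 7700 and 7635 FPKM to 1988, 1987 and 2434 FPKM. MT-ND2 stood at 3638, 3681 and 3420 FPKM in vehicle and 3305, 3171 and 3669 FPKM with TXX-1-10, and these values overlapped. The 12S ribosomal RNA MT-RNR1 was higher, from 885, 851 and 803 FPKM to 2117, 2101 and 2562 FPKM (log2 fold change 1.42, adjusted p = 9.47e-08), and the 16S ribosomal RNA MT-RNR2 was at 4492, 4218 and 3990 FPKM and 5878, 5781 and 6755 FPKM (log2 difference 0.54), in libraries selected for poly(A). Several genes overlap on this genome, MT-ATP8 and MT-ATP6 among them, and sequences copied into the nucleus resemble it, so single values are less certain. Counts of all mitochondrial genes together came to 6.26% to 6.52% of the total behind the FPKM values in vehicle and to 3.06% to 3.51% of it with TXX-1-10, again as a ratio to a total that is not the sum of the reads.

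Of 78 nuclear subunits of oxidative phosphorylation, 1 fell, ATP5MC1 (-1.20, 1.28%, median -0.35), of 74 mitochondrial ribosomal proteins 1 fell, MRPL12 (-1.28, 1.35%, median -0.27), and of 28 enzymes of the TCA cycle 2 fell, PC (-1.39) and IDH2 (-1.23, 7.14%, median -0.54). These shares lie under the 12.7% of all genes, and under the 7.42% that were lower. By the adjusted p alone, however, many more were lower, beside 39.9% of all genes. These were 57 of the oxidative phosphorylation genes (73.1%), 43 of the mitochondrial ribosomal proteins (58.1%) and 21 of the TCA cycle enzymes (75%). Higher by it were 2, 5 and 2.

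**Figure D4:**
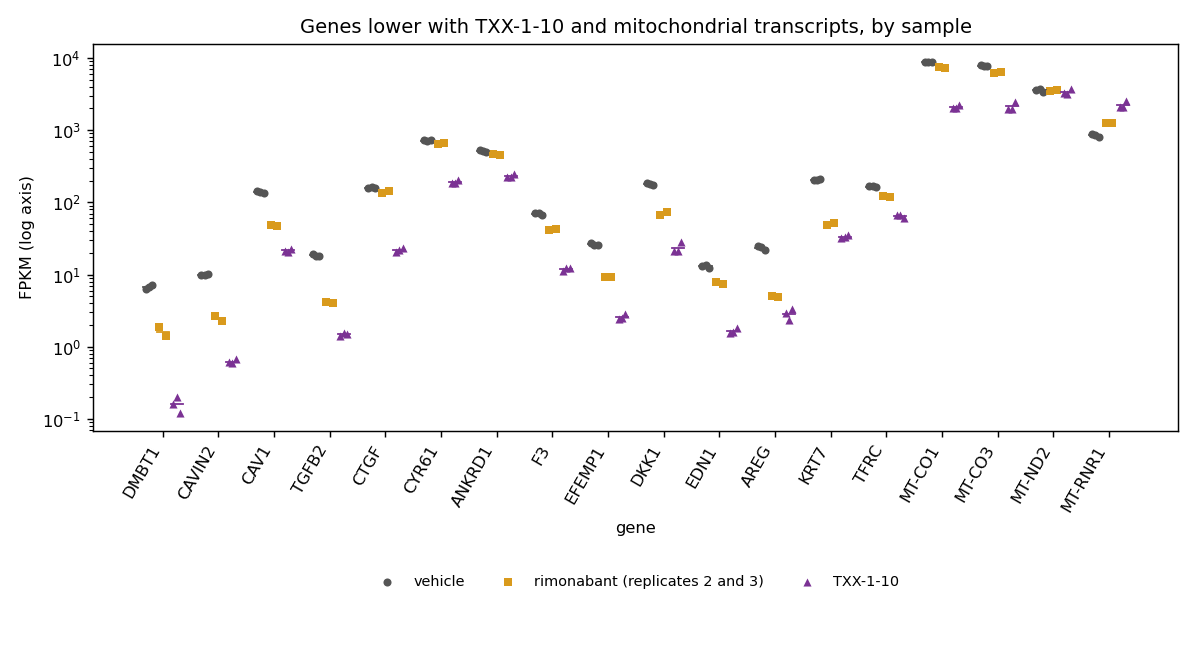
FPKM on a log axis for 14 nuclear genes that fell and 4 mitochondrial transcripts (x axis), 1 point per library and a bar at the group mean for vehicle (circles, n = 3), rimonabant (squares, replicates 2 and 3) and TXX-1-10 (triangles, n = 3). MT-CO1 drops to 2030, 2002 and 2255 FPKM from 8835, 8691 and 8908 FPKM, MT-ND2 overlaps between the groups and MT-RNR1 is higher with TXX-1-10.

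Of 62 nucleolar ribosome biogenesis genes, 8 fell and 0 rose (12.9%, beside 12.7% of all genes in either direction and 7.42% lower, median -0.58), NOP56 (-1.33) most. Without TXX-1-10 replicate 2 this count was 5, with TMM 4, with limma on log2(FPKM + 1) 3 and with the sum of listed counts 2. By the adjusted p alone 52 were lower, 83.9% beside 39.9% of all genes. Of 27 genes for polyamine, pyrimidine and purine synthesis, 7 fell and 1 rose (29.6%, median -0.68), the CTP synthase CTPS1 (-1.61), PFAS (-1.48) and PAICS (-1.40) lower, and SAT1, which breaks polyamines down, higher (1.59). Of 11 tubulin genes 5 fell (45.5%, median -0.74), TUBA1B most (-1.93), with reads that close copies may share. Of 21 histone variant and HMG genes 3 fell (14.3%, beside 12.7% of all genes in either direction and 7.42% lower, median -0.66), against 7 lower without TXX-1-10 replicate 3. They were H2AFX (-1.48), HMGN2 (-1.25) and HMGB3 (-1.03, -0.99 without vehicle replicate 1, -0.995 without TXX-1-10 replicate 2). Of 82 cytosolic ribosomal protein genes, some of them expressed paralogues, 0 were called, 0 of 35 proteasome subunits were, and the medians were -0.01 and -0.25, and the first turned to 0.12 with the sum of listed counts and to 0.03 and 0.05 without TXX-1-10 replicates 1 and 2. By edgeR's adjusted p alone 16 of the ribosomal protein genes were higher and 18 lower, and 0 of the proteasome genes higher and 22 lower, where 73.7% of all genes passed in either direction.

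Of 204 genes with ZNF symbols, 13 rose and 3 fell (7.84%, under the 12.7% of all genes, median 0.28). By the adjusted p alone 115 were higher (56.4%, beside 33.8% of all genes) and 34 lower (16.7%, beside 39.9%). Of 24 snoRNA host and stress-linked long noncoding RNAs, 3 rose and 2 fell (20.8%, median 0.38), NEAT1 (1.07), MIR22HG (1.63) and ZFAS1 (1.005, 0.98 without vehicle replicate 2, 0.98 without vehicle replicate 3, 0.92 without TXX-1-10 replicate 3) higher and SNHG1 (-1.05, -0.98 without TXX-1-10 replicate 2) and SNHG4 (-1.06, -0.97 without TXX-1-10 replicate 1) lower. Of 13 annexin and S100 genes 1 rose, S100A13 (1.04, 0.91 without TXX-1-10 replicate 3, a share of 7.69% beside 12.7% of all genes, median 0.31). Without TXX-1-10 replicate 3 both of these lists held more genes lower than higher, 3 against 2 and 1 against 0. None of 5 PBX family genes and partners was called. PBXIP1, whose protein (HPIP) the compound was selected to reduce, was at 8.47, 8.03 and 8.85 FPKM in vehicle and 15.7, 14.6 and 16.3 FPKM with TXX-1-10, without overlap and 1.84-fold higher (adjusted p = 6.61e-07), short of the fold threshold, which it passed with the sum of listed counts (log2 difference 1.02). The paper reports the opposite direction for this mRNA, a dose-dependent fall by RT-qPCR in MDA-MB-231 cells. Conditions may differ, since dose and time of the sequenced cells are not given.

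Some of the largest changes lay in no list. PTGS2 (cyclooxygenase-2, ENSG00000073756 on chromosome 1) went from 0.589, 0.583 and 0.639 FPKM to 14.3, 13.8 and 13.4 FPKM, 22.8-fold (adjusted p = 2.00e-10). UPP1, a uridine phosphorylase, went from 12.9, 12.3 and 13 FPKM to 98.9, 95.6 and 115 FPKM, and IFITM10 (4.54), SUN3 (3.36) and TCP11L2 (2.89) rose. In each of these the TXX-1-10 libraries lay above the vehicle libraries, which the rule for naming them required.

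Among the genes that fell, DMBT1, a secreted scavenger receptor protein of epithelia (ENSG00000187908, chromosome 10), had the largest change, from 6.32, 6.69 and 7.21 FPKM to 0.161, 0.202 and 0.121 FPKM (41.6-fold, adjusted p = 3.40e-10). EFEMP1, a fibulin of the matrix, went from 27.7, 25.6 and 25.3 FPKM to 2.45, 2.52 and 2.81 FPKM, DKK1, a secreted WNT inhibitor, from 186, 180.3 and 175 FPKM to 20.9, 21.5 and 28.2 FPKM, and EDN1, the gene of endothelin-1, from 13.3, 13.6 and 12.4 FPKM to 1.53, 1.6 and 1.82 FPKM. All 4 separated the groups fully, which the rule for naming them required, so it adds no support. The transcription factor ATOH8 (-3.94), NEURL1B (-3.05), PPFIA4 (-2.82), the helicase PIF1 (-2.81), the uncoupling protein UCP2 (-2.63), GCNT1 (-2.62), the sodium channel subunit SCNN1A (-2.62), CCBE1 (-2.57) and the noncoding LINC00452 (-3.57) and AC112777.1 (-2.54) completed the 20 largest falls.

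Whether the derivative and its parent differ was tested directly, TXX-1-10 against rimonabant replicates 2 and 3 (the list of replicate 1 holds 4237 genes), in 1 fit with the vehicle libraries over the same 9395 genes. With TXX-1-10, 197 genes were higher (2.1%) and 406 lower (4.32%) than with rimonabant, together 6.42%. Against the vehicle, which both contrasts share, 69 genes were higher with rimonabant (0.734%) and 73 lower (0.777%), together 1.51%. Since doses are not given, a difference of compound and one of dose cannot be told apart. Of the 29 ATF4-CHOP genes 9 were higher with TXX-1-10 and 0 lower. DDIT3 was at 10.8, 11.3 and 11.2 FPKM in vehicle, 21.1 and 22.3 FPKM with rimonabant and 122, 109 and 143 FPKM with TXX-1-10, and the log2 difference between the compounds was 2.52 (SE 0.105, adjusted p = 2.50e-09). PTGS2 was at 1.21 and 1.21 FPKM with rimonabant (difference 3.51), SLC30A1 at 7.31 and 7.1 FPKM (2.48) and HMOX1 at 7.74 and 7.81 FPKM (2.30).

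CTGF stood at 133 and 142 FPKM with rimonabant, -2.65 on the log2 scale from rimonabant to TXX-1-10 (adjusted p = 1.15e-10), and 6 of 36 YAP-TEAD genes were lower with TXX-1-10 than with rimonabant and 0 higher. MT-CO1 was at 7401 and 7345 FPKM with rimonabant (-1.81, adjusted p = 1.95e-09), and 10 of 13 mitochondrially encoded mRNAs were lower with TXX-1-10. HBEGF was at 22.2 and 21.6 FPKM with rimonabant, above the vehicle, and at 8.22, 7.6 and 8.07 FPKM with TXX-1-10, below it (difference -1.46).

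Other genes were not called between the compounds. TXNRD1, at 166 and 158 FPKM with rimonabant and 169.9, 167 and 165 FPKM with TXX-1-10, differed by 0.05 on the log2 scale, with a 95% interval of -0.09 to 0.18 (adjusted p = 0.529), EGR1 by 0.09 (-0.06 to 0.24, adjusted p = 0.289) and GCLM by 0.06 (-0.08 to 0.20, adjusted p = 0.462). CHAC1 was at 7.57 and 8.34 FPKM with rimonabant and differed by 0.67 (0.45 to 0.88, adjusted p = 9.90e-05), under the fold threshold. KRT7 was at 48.1 and 50.9 FPKM with rimonabant and differed by -0.57. CXCL8, at 32.9 and 31.2 FPKM with rimonabant, was lower with TXX-1-10 by a log2 difference of -0.25 (adjusted p = 0.00246).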

How the data were processed

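Libraries were grouped by the treatment that the labels give, 3 each for vehicle, TXX-1-10 and rimonabant. The authors selected RNA with oligo(dT) and prepared libraries with the NEBNext Ultra kit for Illumina sequencing, and their processing notes name HISAT2 2.0.5 and featureCounts 1.5.0-p3. Whether counting used strand is not given in the sources used here. The authors deposited a whole-number count per gene and, beside it, an FPKM value. The library total behind the FPKM was computed from the 2 columns and the gene lengths, and served as library size. It is not the sum of the counts, which is larger in vehicle replicates 1 and 3. All 27615 gene coordinates match GENCODE 29 (GRCh38).

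The deposited lists end at different rows, from 4237 to 27615 genes, and the cut last line of each was dropped. A missing line was not read as 0. The 9397 genes of all 6 lists were tested with edgeR 4.0.16 in R 4.3.3 (filterByExpr, estimateDisp, glmQLFit, glmQLFTest) without a replicate block, common biological coefficient of variation 0.0645. No 2 replicates agreed within sampling noise. The standard error is the log2 fold change divided by the square root of F, which is approximate. DESeq2 1.42.0, limma 3.58.1 and other scalings, filters and fits were alternatives. On simulated counts for this comparison over 9395 genes, 200 of 200 genes changed 3-fold were recovered with 0 false calls. The simulation gave every gene the common coefficient of variation and held no deviating library or length trend. It checks that the code runs as meant and does not measure error rates in these data. Plots used Python 3.11.15 and matplotlib 3.10.9.

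The thresholds are those of the study's legend. The 48 gene lists, 3 of them set aside, and their members were chosen with earlier results of these data known, and lists are given as counts and medians with no test. Some genes and 1 of the lists are not reported here. Named genes are PBXIP1, list members, and the 20 highest and 20 lowest changed genes outside the lists set aside, with a mean count of at least 50 and no overlap between groups. Promoter windows are from RefSeq (GRCh38.p14), matched by current or older symbol.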

Additional observations from a re-analysis of the deposited data

Results flagged for a closer look

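The list of vehicle replicate 2 is the shortest of the 6, and 2338 genes of lower counts were listed in the other 5 libraries alone, outside the comparisons above. An edgeR quasi-likelihood fit of those 5 libraries, added after the data were seen, called 259 of them higher and 255 lower (22%). The 5 largest changes in each direction among those with a mean count of at least 50 are given here because they are signals in data the comparisons left out. Each met that mean count through the group where it was high. Separate groups and a small adjusted p were thus favoured by the choice and add no support.

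ATP6V0D2, a V-ATPase subunit with restricted tissue expression, was at 0.156 and 0.116 FPKM in vehicle and 10.2, 11.3 and 10.7 FPKM with TXX-1-10, a log2 fold change of 6.28 (SE 0.189, adjusted p = 5.18e-09, from 8 and 6 reads in vehicle). HSPA6, a strictly inducible HSP70 gene, was at 0.296 and 0.196 FPKM in vehicle and 7.92, 7.15 and 8.75 FPKM with TXX-1-10 (4.997, SE 0.224, from 12 and 8 reads in vehicle). LURAP1L was at 0.906 and 0.517 FPKM in vehicle and 12.8, 11.4 and 13.9 FPKM with TXX-1-10 (4.15), and the collagen gene COL20A1 at 0.0374 and 0.0423 FPKM in vehicle and 1.69, 1.93 and 1.35 FPKM with TXX-1-10 (5.36, from 7 and 8 reads in vehicle). RPLP0P2, a transcribed pseudogene of a ribosomal protein whose reads may be shared with its parent gene, rested on 2 and 3 reads in vehicle and had a log2 fold change of 6.34, which depends on the prior count. In all 5 the TXX-1-10 values lay above the vehicle values, which the choice of the largest changes favoured.

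The amino acid transporter SLC38A4 was at 5.34 and 5.13 FPKM in vehicle and 0.30, 0.446 and 0.210 FPKM with TXX-1-10, -4.03 on the log2 scale (adjusted p = 6.97e-08). The peptide hormone receptor gene VIPR1 (-3.96), ARNT2 (-3.79), a partner of bHLH-PAS factors, and the cell cycle factor E2F2 (-3.71) were lower. TGFB2-AS1, antisense to TGFB2, was at 29.3 and 26.8 FPKM in vehicle and 2.14, 1.95 and 2.24 FPKM with TXX-1-10 (-3.72), and whether its reads can be told from those of TGFB2 depends on strand, which is not given in the sources used here.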

How the results depend on the processing

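The count of changed genes stayed within 1.5 times of 1192 under every alternative except the test against a fold of 1.5 (2155 genes by the adjusted p, 919 higher and 1236 lower), and the 5-library fit gave 751 higher genes. Counts were 1180 with TMM, 1184 with DESeq2 and 868 with limma on log2(FPKM + 1). Leaving out 1 library gave 1186 to 1224. With the replicate number as a block 1199 genes were called, but same-numbered libraries did not deviate together (correlations -0.07, -0.04 and -0.08), so the numbers do not pair them. TXX-1-10 against rimonabant gave 603 genes, 608 with the block, 596 with TMM and 599 to 613 without 1 library.

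Of 5295 repeats over 232 named genes, 85 lost and 7 gained a call and 9 changed sign, all 9 in genes that were not called. EIF2AK2 went to 0.0335 and WWTR1 to 0.0011 with the sum of listed counts, MT-ND2 to 0.0547 with it and to 0.0733, 0.0727 and 0.11 with the length offset alone, with the block and without TXX-1-10 replicate 3, and FOS ranged from -0.0169 to 0.0334 when 1 library was left out. The noncoding RNA list (5 genes called, 4 or 5 without 1 library) and the annexin list (1) turned from more higher to more lower without TXX-1-10 replicate 3. The cause was not tested. Genes below the end of the shortest list, and changes smaller than the spread at these read depths, are beyond these counts. The alternatives without mitochondrial genes in the sum, with the length offset without TXX-1-10 replicate 3 and with 5 libraries were chosen after seeing the data.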

Other observations

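The 2 compounds moved some genes in opposite directions from the vehicle. Outside the lists set aside, 24 genes were changed by TXX-1-10, differed by the fold threshold between the compounds, and passed the adjusted p with rimonabant in the other direction, 11 of them higher and 13 lower with TXX-1-10. This group was chosen after the values were seen, both comparisons share the vehicle libraries, and every change with rimonabant was under the fold threshold. OASL, an interferon-induced gene, was at 3.53, 3.38 and 2.89 FPKM in vehicle, 2.01 and 1.92 FPKM with rimonabant and 7.39, 7.23 and 8.03 FPKM with TXX-1-10, a log2 difference of 1.94 between the compounds. THBD, the thrombin receptor thrombomodulin, was at 9.36, 9.27 and 9.85 FPKM in vehicle, 7.05 and 7.05 FPKM with rimonabant and 25.8, 25.2 and 26.2 FPKM with TXX-1-10 (1.87). IFIT1 (1.55), ISG15 (1.38), PLIN2 (1.68), RHOB (2.35) and KLF9 (1.44) stood on the same side. On the other side, FAM111B was at 10.3, 10.1 and 10.1 FPKM in vehicle, 15.1 and 15.4 FPKM with rimonabant and 1.95, 2.18 and 1.70 FPKM with TXX-1-10 (-2.97), with TCF19 (-2.55), the cohesion factor ESCO2 (-2.30) and the histone chaperone ASF1B (-1.70), genes of S phase, lower with TXX-1-10.

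Among the noncoding classes, 6 of 35 antisense genes tested rose (17.1%) and 1 fell (2.86%), and 5 of 43 lincRNA genes rose (11.6%) and 4 fell (9.3%), beside 5.27% and 7.42% of all genes. Whether counting used strand, on which antisense counts depend, is not given in the sources used here.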
